A study of Mus musculus with 12 samples.

Results

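The potassium channel genes of mouse spinal cord were taken as every gene of the count table whose symbol begins with Kcn, with 5 antisense or overlapping transcripts left out. This gave 94 of 46078 genes, of which 45143 carry a symbol. They fell into 40 voltage-gated alpha subunits (Kcna to Kcnd, Kcnf to Kcnh, Kcnq, Kcns and Kcnv) and 17 auxiliary and regulatory subunits (Kcnab, Kcne, Kcnip, Kcnmb and Kcnrg). The others were 15 inward rectifiers (Kcnj), 14 2-pore-domain channels (Kcnk) and 8 alpha subunits gated by calcium, sodium or pH (Kcnma, Kcnn, Kcnt and Kcnu). Bulk RNA sequencing covered 12 libraries in 4 groups of 3, all from C57BL6/cJ host mice: spinal cord injury (SCI) followed by transplantation of syngeneic mesenchymal stem cells (MSC), SCI followed by allogeneic MSC, SCI without cells, and non-injured cord. Syngeneic cells come from a donor that matches the host genetically, and allogeneic cells from a donor of the same species that does not. The sources used here do not give the donor strain, the time after injury, the segment of cord, or the age and sex of the hosts. Whether each sample is a separate animal is also not stated, and the p-values then measure only the spread between these samples.

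Potassium channels let potassium leave or enter a cell along its electrochemical gradient and so set the resting potential and shape the action potential. In spinal cord, voltage-gated channels repolarise axons and cell bodies of neurons, and inward rectifiers of astrocytes take up the potassium that active neurons release. Microglia, macrophages and T cells carry a smaller set of channels of their own. Auxiliary subunits do not form the pore but change the gating or the trafficking of the alpha subunits.

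What all pore-forming members share is the signature of the selectivity filter, the loop that lets potassium pass and holds sodium back. A search of the coding sequences (GENCODE M21 transcripts, build GRCm38) found 1 signature in each of the 40 voltage-gated subunits, the 15 inward rectifiers and the 8 calcium-, sodium- and pH-gated subunits. The pattern was threonine or serine, then valine, isoleucine or leucine, then glycine, then tyrosine, phenylalanine or leucine, then glycine. It admits variants of the signature, so the matches describe the members and test nothing. Among the 2-pore-domain channels, 12 of 14 held 2 signatures, and Kcnk1 and Kcnk7 held 1 that met the search pattern. None of the 17 auxiliary and regulatory subunits held one. The stretches below are exonic and protein-coding, are given 5′ to 3′ on the coding strand, and belong to the 2 most abundant pore-forming members (Kcnj10 and Kcna1) and to some of the members that differed between injured and non-injured cord. Capitals mark the 15 bases that encode the signature, and for Kcnk6 the second of the signatures is shown.
Kcna1 (chr6:126642222-126642248, minus strand): atgaccACTGTGGGATACGGTgacatg
Kcns1 (chr2:164164848-164164874, minus strand): atgaccACAGTGGGCTATGGGgatgtg
Kcns3 (chr12:11091569-11091595, minus strand): atgaccACAGTGGGCTATGGAgacacc
Kcnj10 (chr1:172369296-172369322, plus strand): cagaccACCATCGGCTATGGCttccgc
Kcnj2 (chr11:111072201-111072227, plus strand): cagacaACCATTGGCTATGGTttcagg
Kcnk6 (chr7:29225530-29225556, minus strand): ctgtccACCATTGGCCTAGGGgactac
Of the 15 capital bases, Kcns1 and Kcns3 each shared 11 with Kcna1, Kcnj2 shared 10, Kcnj10 shared 9, and the second signature of Kcnk6 shared 7.

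Library totals ran from 8705942 counts (allogeneic replicate 2) to 26151928 counts (non-injured replicate 1), and potassium channel genes took 0.377% to 0.672% of them. Of the 94 members, 76 passed the filter on low counts, and so entered the test with 16527 genes in all. The 18 others had 0 to 84 counts over the 12 libraries together, and 3 of them (Kcnj1, Kcnk18 and Kcnmb3) had none. The labelled tissue was checked against marker lists: all 13 neuronal and all 7 oligodendrocyte markers passed the same filter, and the summed level of 6 skeletal muscle markers was 2.03 to 10.9 CPM (counts scaled to library size). Mitochondrial genes took 10.9% of counts in non-injured replicate 3 and 4.998% to 8.80% in the 11 other libraries. That library also had an oligodendrocyte marker sum of 79243 CPM, against 32785 and 41293 CPM in the 2 other non-injured libraries. Schwann cell markers summed to 128, 993 and 1663 CPM in non-injured replicates 1, 2 and 3. Their sums were 328 to 864 CPM in the syngeneic group, 680 to 1823 CPM in the allogeneic group and 647 to 738 CPM in SCI. The part of peripheral nerve tissue in the channel values was not tested.

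Measured per kilobase (kb) of exon, the same 2 members led in all 4 groups. Kcnj10 encodes Kir4.1, the main inward rectifier of astrocytes and oligodendrocytes, and was the highest. Its level was 224 ± 26.96 CPM per kb in the syngeneic group, 209 ± 42.2 in the allogeneic group, 238 ± 4.23 in SCI and 207 ± 10.01 in non-injured cord (SD, n = 3 each). Kcna1, whose product Kv1.1 lies beside the nodes of myelinated axons, came next with 135 ± 24.1, 102 ± 22.7, 106 ± 7.93 and 140.3 ± 20.4 CPM per kb in the same 4 groups. Kcnab2, the cytoplasmic beta subunit of Kv1 channels, was lower than both, at 77.2 ± 10.96, 59.99 ± 10.7, 58.5 ± 6.03 and 78.4 ± 17.5 CPM per kb, in that order of groups. Only 21, 16, 18 and 23 members reached 10 CPM per kb in these groups.

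**Figure D1:**
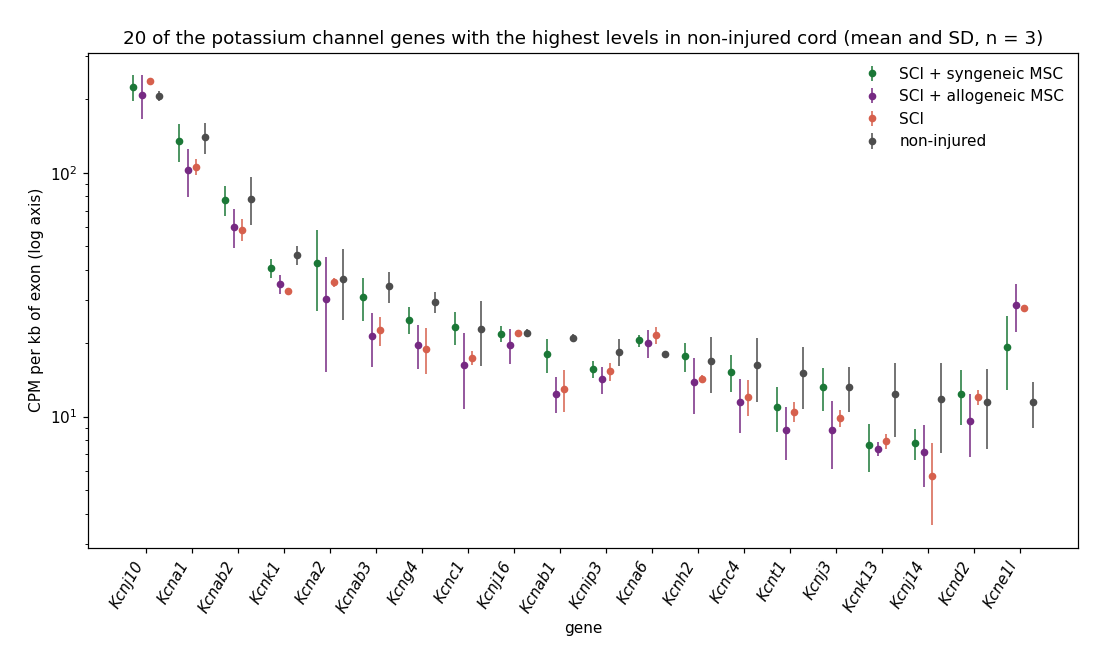
Levels of 20 of the potassium channel genes with the highest levels in non-injured cord, in CPM per kb of exon on a log axis, with points for group means and bars for the SD of 3 libraries. Kcnj10 and Kcna1 stand at the left and lead in every group.

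The libraries of a group differed among themselves for many members. The ratio of the highest to the lowest library exceeded 2 for 21 of 76 members in the syngeneic group, for 26 of 75 in the allogeneic group, for 2 of 75 in SCI and for 32 of 75 in non-injured cord (members with a count in every library). Its median was 1.59, 1.73, 1.25 and 1.88 in these groups. The ratio was not taken over all genes, so it does not show whether the members varied more than other genes. Syngeneic replicate 1 was the highest of its group for 54 of 76 members (71.1%, against 34.7% of all 16527 genes), and allogeneic replicate 1 for 59 members (77.6%, against 36.9%). Non-injured replicate 3 was the lowest of its group for 56 members (73.7%, against 37%). In SCI no library held such a place, the largest share being 34 members (44.7%, against 32.3% of all genes) for which replicate 1 was the highest. Over all genes, a chi-square of counts divided by its degrees of freedom was 86.1 and 80.6 between non-injured replicate 3 and its group, against 7.25 between the other pair. It was 28.5 and 59.2 between allogeneic replicate 1 and its group, against 13.3 between the other pair. The syngeneic pairs gave 34.3 to 67.8, with replicate 2 the farthest, but replicate 3 had a monocyte and macrophage marker sum of 1490 CPM, against 447 and 299 CPM in replicates 1 and 2. The comparisons are therefore also given without non-injured replicate 3, allogeneic replicate 1 and syngeneic replicate 3, called the 3 libraries that stand apart. They were picked from the same data. Allogeneic replicate 1, the highest of its group for most members, and non-injured replicate 3, the lowest for most, were among them. Syngeneic replicate 1, also the highest for most members, was kept. The number and direction of calls without the 3 libraries therefore follow in part from that choice. Values without them support nothing by themselves.

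**Figure D2:**
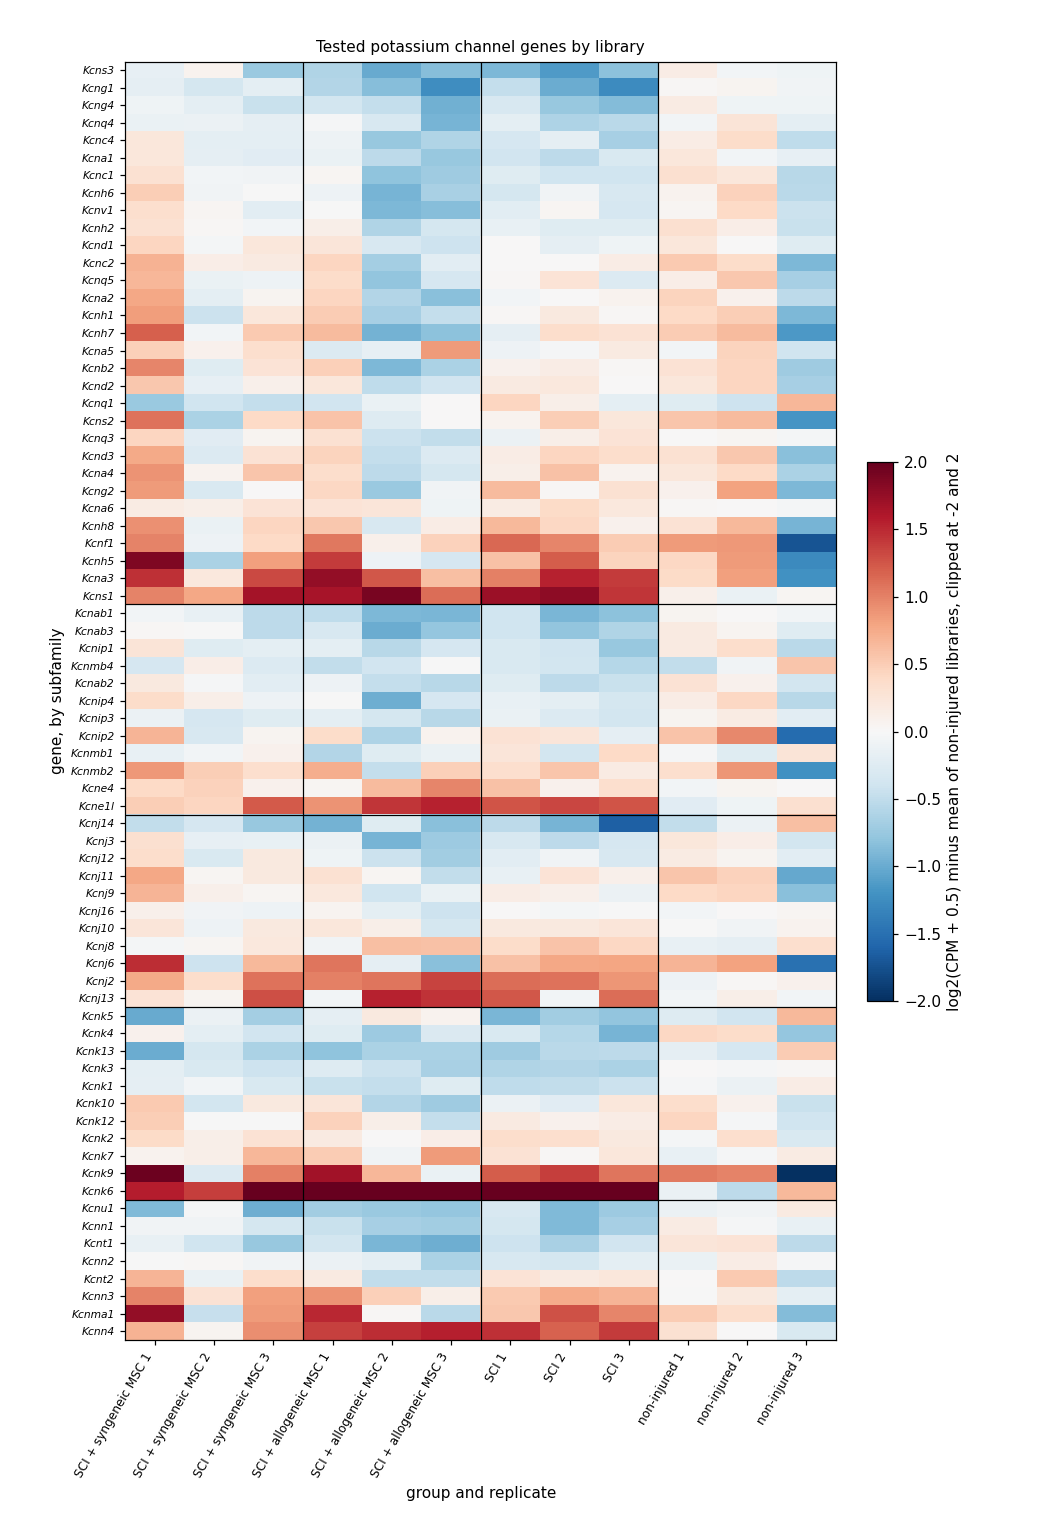
Each row is 1 of 73 of the tested members, ordered by subfamily, and each column 1 library. Colour gives log2(CPM + 0.5) minus the mean of the non-injured libraries, from -2 (blue) to 2 (red). The voltage-gated block is mostly blue in non-injured replicate 3 and mostly red in syngeneic replicate 1, while rows such as Kcnk6, Kcns1, Kcnj2 and Kcne1l are red in every injured library.

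SCI was set against non-injured cord to ask what injury alone had changed. A small group of potassium channel genes was higher after injury, led by Kcnk6, Kcnn4, Kcns1, Kcne1l and Kcnj2, and a larger group was moderately lower, among them Kcns3, Kcng1, Kcnab1, Kcnn1 and Kcnk3. Of 76 members, 17 passed the test (22.4%, against 25.8% of all genes tested), 6 of them higher (7.89%, against 16.6%) and 11 lower (14.5%, against 9.26%). The SCI and non-injured libraries did not overlap for 28 members (36.8%, against 47.5% of all genes). The median log2 fold change was -0.05 over the members and 0.01 over all genes tested. The member median changed sign, to 0.12 without non-injured replicate 1 and 0.07 without non-injured replicate 2, and was -0.32 without non-injured replicate 3. By subfamily, higher and lower calls numbered 1 and 3 among 34 tested voltage-gated subunits, 1 and 2 among 12 auxiliary subunits, and 1 and 1 among 11 inward rectifiers. They numbered 1 and 4 among 11 2-pore-domain channels and 2 and 1 among 8 calcium-, sodium- and pH-gated subunits. Without SCI replicate 2 there were 8 calls (10.5% of members, against 14% of all genes), without SCI replicate 3 again 8 (10.3%, against 16.3%), and without non-injured replicate 1 there were 11 (14.3%, against 16.5%). Without the 3 libraries that stand apart the count was 26 of 77 members then tested (33.8%, against 30.2% of all genes), 6 higher (against 19.7%) and 20 lower (against 10.4%). Of these 26, 13 were among the 17.

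**Figure D3:**
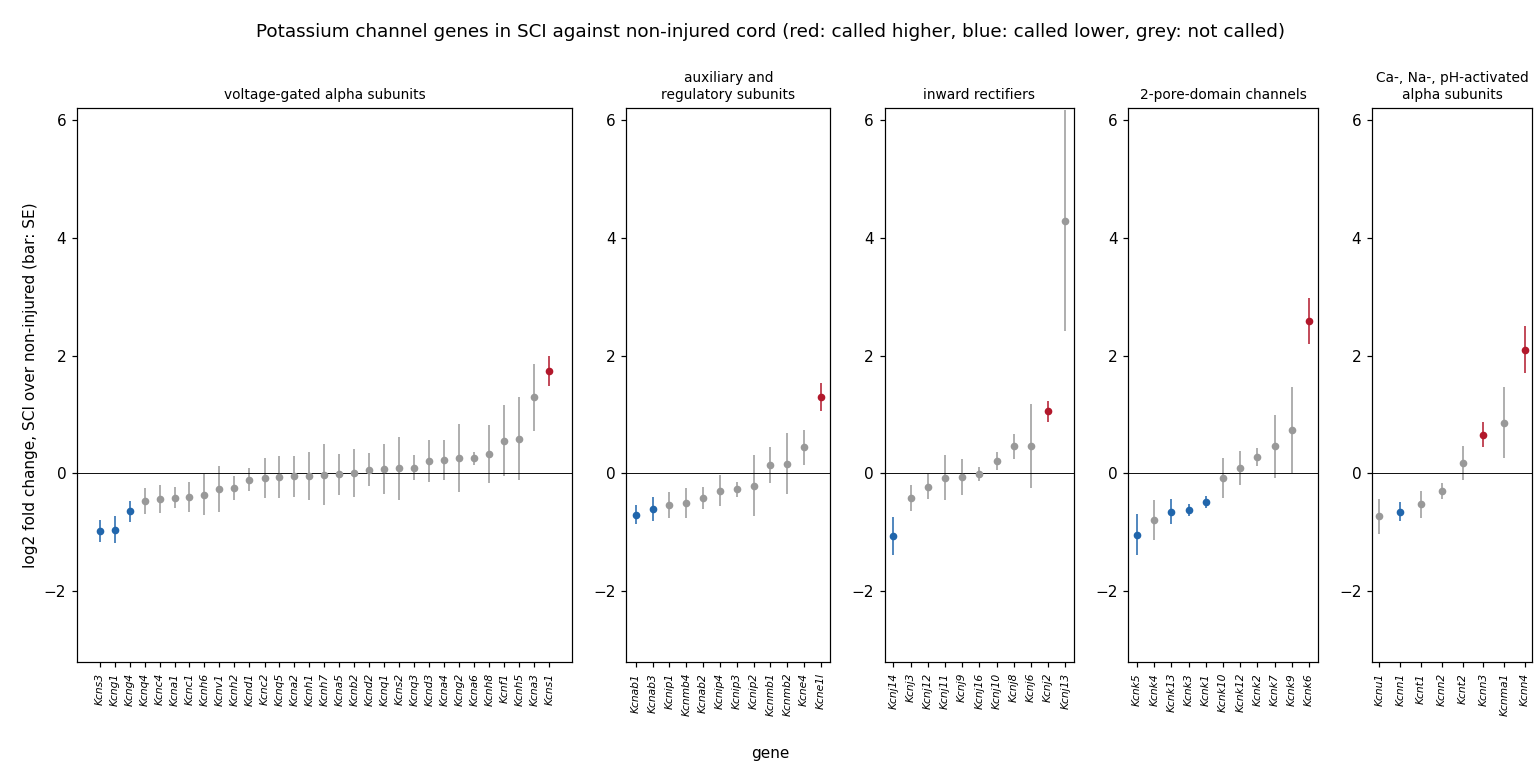
Fitted log2 fold change of SCI over non-injured cord for 73 of the 76 tested members, by subfamily, with bars for the SE. Red points are the 6 members called higher, blue points the 11 called lower, and grey points did not pass the adjusted threshold of 0.05, among them Kcnj13 at 4.29 with a wide bar.

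Of 34 tested voltage-gated subunits 4 passed the test (11.8%, against 25.8% of all genes). The 4 were members of the Kcns and Kcng classes, which form no channel alone but join Kv2 alpha subunits and change their gating. Kcnf1, a silent subunit of Kv2 channels outside these classes, did not pass. Of the 7 members of the Kcns and Kcng classes 6 were tested, and Kcns2 (log2 fold change 0.09 (SE 0.54)) and Kcng2 (0.26 (SE 0.57)) did not pass, while Kcng3 was too scarce to test. Kcns1 (chr2:164163619-164171113) was at 18.1, 19.2 and 14.9 CPM in the SCI libraries and at 5.57, 4.68 and 5.33 CPM in the non-injured libraries. All 3 SCI libraries lay above all 3 non-injured ones (log2 fold change 1.74, SE 0.26, edgeR adjusted p = 0.000823). Its relative Kcns3 (chr12:11090202-11151056) went the other way, with 13.2, 11.1 and 13.9 CPM in SCI and 27.7, 23.9 and 23.3 CPM in non-injured cord. Again the groups did not overlap, and SCI was lower throughout (log2 fold change -0.97, SE 0.19, edgeR adjusted p = 0.00419). Kcng1 (chr2:168260117-168281736) had 5.58, 3.73 and 3.005 CPM in SCI and 8.04, 8.25 and 7.49 CPM in non-injured cord. Kcng4 (chr8:119623854-119635680) had 89.8, 65.8 and 61.01 CPM in SCI and 125, 106 and 106 CPM in non-injured cord. Both were lower in every SCI library than in any non-injured one, Kcng1 with log2 fold change -0.95, SE 0.23, edgeR adjusted p = 0.0127 and Kcng4 with log2 fold change -0.64, SE 0.18, edgeR adjusted p = 0.0241. Both lost their call without SCI replicate 2 or SCI replicate 3, and Kcng4 also without non-injured replicate 1. Kcnb2, an alpha subunit of the Kv2 kind that they join, did not pass the test (log2 fold change 0.01 (SE 0.40)).

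Kcna1, Kcna2 and Kcnc1, abundant voltage-gated channels of axons and neurons, did not pass the test. Kcna1 had 510.5, 464 and 539 CPM in SCI and 779.7, 639 and 593 CPM in non-injured cord. The libraries did not overlap, but the difference missed the threshold (log2 fold change -0.41, SE 0.18, edgeR adjusted p = 0.116). Kcna1 was called lower without the 3 libraries that stand apart, which include non-injured replicate 3, its lowest non-injured library. That call follows in part from the choice of libraries. For Kcna2, the usual partner of Kcna1 in the same channels, SCI had 405, 421 and 442 CPM and non-injured cord 574, 444 and 292 CPM. The SCI values all lay inside the non-injured range (log2 fold change -0.05, SE 0.35, edgeR adjusted p = 0.945). Kcnc1, the fast channel Kv3.1 of neurons that fire at high rates, had 177, 158 and 159 CPM in SCI and 262, 246 and 143 CPM in non-injured cord (log2 fold change -0.39, SE 0.25, edgeR adjusted p = 0.281). In Kcna2 and Kcnc1 the widest gap between any 2 non-injured libraries was larger than the gap between the group means, with non-injured replicate 3 the lowest each time. Without non-injured replicate 3 the Kcnc1 difference passed the threshold (log2 fold change -0.64, edgeR adjusted p = 0.0498). Leaving out the lowest non-injured library favours a lower call, so this call supports nothing by itself. Kcna3, the Kv1.3 channel of T cells and microglia, was at 3.98, 5.93 and 5.39 CPM in SCI and 2.397, 3.44 and 0.461 CPM in non-injured cord. SCI was above non-injured cord in every library, yet the difference missed the threshold (log2 fold change 1.29, SE 0.57, edgeR adjusted p = 0.116).

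Beside these values, the 13 neuronal markers summed to 7955 to 9752 CPM in SCI and 13885 to 15528 CPM in non-injured cord, and 6 of them were lower by the same test. Of 7 motor neuron markers 5 were lower, their sum being 204 to 302 CPM in SCI and 383 to 640 CPM in non-injured cord. Mitochondrial genes took 4.998% to 6.397% of counts in SCI and 7.46% to 10.9% in non-injured cord, with no overlap. The part of these shifts in the channel values was not tested. In bulk tissue, fewer cells of a type and less RNA per cell cannot be told apart.

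Of the auxiliary subunits, 2 of the 3 Kv1 beta subunits were lower after injury. Kcnab1 (chr3:65109384-65378223) had 137, 96.03 and 102 CPM in SCI and 188, 181 and 173 CPM in non-injured cord. Kcnab3 (chr11:69326258-69333042) had 74.1, 56.2 and 63.9 CPM in SCI and 111, 101 and 82.8 CPM in non-injured cord. No SCI library of either gene reached the lowest non-injured one (log2 fold change -0.70, SE 0.17, edgeR adjusted p = 0.0113, for Kcnab1, and log2 fold change -0.60, SE 0.20, edgeR adjusted p = 0.0442, for Kcnab3). Kcnab1 lost its call without SCI replicate 2 or 3, and Kcnab3 without any 1 library other than non-injured replicate 3. The most abundant of the 3, Kcnab2, had 364, 299 and 316 CPM in SCI and 524, 457 and 332 CPM in non-injured cord, and the groups overlapped (log2 fold change -0.42, SE 0.19, edgeR adjusted p = 0.116). Without non-injured replicate 3 it was called lower (log2 fold change -0.60, edgeR adjusted p = 0.0212). Kcnip3, a calcium-binding partner of Kv4 channels that is also called DREAM or calsenilin, was at 59.1, 53.8 and 50.1 CPM in SCI and 67.3, 72.8 and 56.2 CPM in non-injured cord (log2 fold change -0.27, SE 0.13, edgeR adjusted p = 0.138). The groups overlapped in 1 non-injured library, replicate 3, without which Kcnip3 was called lower (log2 fold change -0.38, edgeR adjusted p = 0.0415). Both were also called lower without the 3 libraries that stand apart. Non-injured replicate 3 was the lowest of its group for Kcnab2 and Kcnip3, so leaving it out favours a lower call. These calls support nothing by themselves. Kcne1l (chrX:142304752-142306294), a single-span KCNE subunit, was the 1 auxiliary member that was higher, with 42.3, 44.6 and 42.5 CPM in SCI and 14.7, 16.3 and 21.9 CPM in non-injured cord. The lowest SCI library was well above the highest non-injured one (log2 fold change 1.29, SE 0.24, edgeR adjusted p = 0.00264).

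The inward rectifiers of glia were close between the groups, while 2 members of the Kir2 branch moved in opposite directions. Kcnj10 had 1274, 1275 and 1314 CPM in SCI and 1110.4, 1066 and 1174 CPM in non-injured cord. All SCI values were above all non-injured values, by a margin that did not pass the test (log2 fold change 0.21, SE 0.15, edgeR adjusted p = 0.36). Kcnj16, whose product Kir5.1 joins Kir4.1 in mixed channels, had 87.4, 84.7 and 87.03 CPM in SCI and 84.2, 87.3 and 89.9 CPM in non-injured cord, and the ranges overlapped (log2 fold change -0.01, SE 0.11, edgeR adjusted p = 0.96). The astrocyte markers beside them summed to 13169 to 14740 CPM in SCI and 6417 to 8012 CPM in non-injured cord, with 6 of 8 higher and 1 lower. The oligodendrocyte markers summed to 24201 to 33050 CPM in SCI and 32785 to 79243 CPM in non-injured cord, with 0 of 7 higher and 4 lower. The part of either in the values of Kcnj10 and Kcnj16 was not tested. Kcnj2 (chr11:111066164-111076821) encodes Kir2.1, a strong rectifier that holds the resting potential. It had 32.5, 31.7 and 27.4 CPM in SCI and 13.6, 14.9 and 15.6 CPM in non-injured cord, with no overlap (log2 fold change 1.05, SE 0.17, edgeR adjusted p = 0.00147). Kcnj14 (chr7:45816460-45824782) encodes Kir2.4, which in rat was described in motor neurons of cranial nerve nuclei. Its values were 21.1, 15.8 and 9.58 CPM in SCI and 21.6, 28.2 and 46.8 CPM in non-injured cord. The groups were separated by a narrow gap between SCI replicate 1 and non-injured replicate 1 (log2 fold change -1.06, SE 0.32, edgeR adjusted p = 0.0332). The call was lost without SCI replicate 2, SCI replicate 3 or non-injured replicate 3, the library with the highest value. Kcnj8, the Kir6.1 pore of ATP-sensitive channels in pericytes and smooth muscle, had 8.52, 9.94 and 8.901 CPM in SCI and 5.84, 5.68 and 8.36 CPM in non-injured cord. All SCI libraries were above the non-injured ones, the closest pair being SCI replicate 1 and non-injured replicate 3 (log2 fold change 0.46, SE 0.21, edgeR adjusted p = 0.132). The largest fitted value of all members belonged to Kcnj13 (Kir7.1), which is named after its values were seen: 23 counts were found in SCI against 1 in non-injured cord, giving a ratio of 27.1 with a 95% counting interval of 4.39 to 1115, and the difference did not pass the test (edgeR adjusted p = 0.115). Kcnj13 had no count in SCI replicate 2, and the counting interval leaves out the spread between libraries. Of its 1270 exon bases, 623 overlap Gigyf2 on the other strand, and whether the counting used strand is not stated, so reads of the 2 genes cannot be told apart.

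The 2-pore-domain channels, which carry the background leak of potassium, held the largest increase among all calls and 4 of the 11 decreases. Kcnk6 (chr7:29221926-29232515) encodes TWIK2, described in mouse macrophages as the route of potassium efflux that starts the NLRP3 inflammasome. It was at 15.4, 21.4 and 15.99 CPM in SCI and at 2.44, 1.75 and 4.56 CPM in non-injured cord. Every SCI library was more than 3 times the highest non-injured one (log2 fold change 2.59, SE 0.39, edgeR adjusted p = 0.00098). Kcnk13 (chr12:99964499-100062682) encodes THIK1, the resting leak channel of microglia. Its values were 22.5, 25.5 and 25.9 CPM in SCI and 33.01, 29.5 and 53.3 CPM in non-injured cord. SCI was lower in all libraries, but non-injured replicate 3 was far above the other two (log2 fold change -0.65, SE 0.21, edgeR adjusted p = 0.0441). Without that library the log2 fold change was -0.36 and the edgeR adjusted p 0.145, and the call was also lost without any 1 SCI library or non-injured replicate 1. Kcnk1 (chr8:125995170-126030685), the TWIK1 channel, had 72.2, 72.5 and 75.9 CPM in SCI and 101, 94.3 and 113 CPM in non-injured cord. Kcnk3 (chr5:30588170-30625271), the acid-sensitive channel TASK1, had 26.04, 26.2 and 25.3 CPM in SCI and 39.7, 39.1 and 40.2 CPM in non-injured cord. In both genes every SCI library was below every non-injured one, with log2 fold change -0.48, SE 0.11, edgeR adjusted p = 0.00707 for Kcnk1 and log2 fold change -0.62, SE 0.11, edgeR adjusted p = 0.00184 for Kcnk3. Kcnk5 (chr14:20140057-20181809), the alkaline-activated channel TASK2, was scarce, with 1.65, 2.03 and 1.87 CPM in SCI and 2.899, 2.62 and 5.897 CPM in non-injured cord. It passed the threshold narrowly (log2 fold change -1.04, SE 0.35, edgeR adjusted p = 0.0485) and lost its call without any 1 library other than non-injured replicate 2.

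Of the channels that open on intracellular calcium, Kcnn4 and Kcnn3 were higher and Kcnn1 lower. Kcnn4 (chr7:24370263-24386690) encodes KCa3.1, the intermediate-conductance channel of T cells, microglia and macrophages. It was rare, with 1.899, 1.48 and 1.81 CPM in SCI and 0.5798, 0.375 and 0.205 CPM in non-injured cord. The groups did not overlap (log2 fold change 2.10, SE 0.40, edgeR adjusted p = 0.0035). The small-conductance channel Kcnn3 (chr3:89520164-89675132) had 26.6, 30.9 and 29.8 CPM in SCI and 18.2, 21.1 and 15.998 CPM in non-injured cord. The gap between the groups was wider than the range within either, but the call (log2 fold change 0.66, SE 0.22, edgeR adjusted p = 0.0429) was lost when any 1 of the 6 libraries was left out. Kcnn1 (chr8:70842049-70863258), another small-conductance channel, had 11.1, 7.52 and 8.84 CPM in SCI and 16.1, 14.1 and 12.8 CPM in non-injured cord. SCI was lower throughout (log2 fold change -0.65, SE 0.16, edgeR adjusted p = 0.0136), and the call was lost without SCI replicate 2, SCI replicate 3 or non-injured replicate 1. Kcnma1, the large-conductance BK channel, had 21.8, 36.6 and 29.7 CPM in SCI and 21.4, 18.99 and 7.95 CPM in non-injured cord. SCI replicate 1 lay only just above non-injured replicate 1, and the difference did not pass the test (log2 fold change 0.86, SE 0.61, edgeR adjusted p = 0.328).

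Beside Kcnk6, Kcnn4 and Kcnj2, which were called higher, Kcna3, which was not called, and the microglial channel Kcnk13, which was called lower, markers of immune cells were higher in SCI than in non-injured cord. All 9 microglial markers were called higher, with sums of 1409 to 1650 CPM in SCI and 311 to 446 CPM in non-injured cord. All 9 monocyte and macrophage markers were called higher, at 1045 to 1519 CPM in SCI and 39.7 to 51.4 CPM in non-injured cord, as were 7 of 8 T cell markers, at 68.9 to 81.0 CPM and 7.37 to 10.9 CPM. The 8 fibroblast and meningeal markers were all higher as well, at 1414 to 1970 CPM in SCI and 172 to 299 CPM in non-injured cord. Whether these cells account for any channel difference was not tested.

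Calls of 8 of the 17 members held under all 14 alternatives, including the removal of each SCI and each non-injured library in turn: Kcnk6, Kcnn4, Kcns1, Kcne1l and Kcnj2 among those that were higher, and Kcns3, Kcnk1 and Kcnk3 among those that were lower. Of the 17, exons of Kcnab1, Kcnab3, Kcnk1, Kcnk3 and Kcnn1 overlap a gene on the other strand over 201, 147, 179, 229 and 132 bases.

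**Figure D4:**
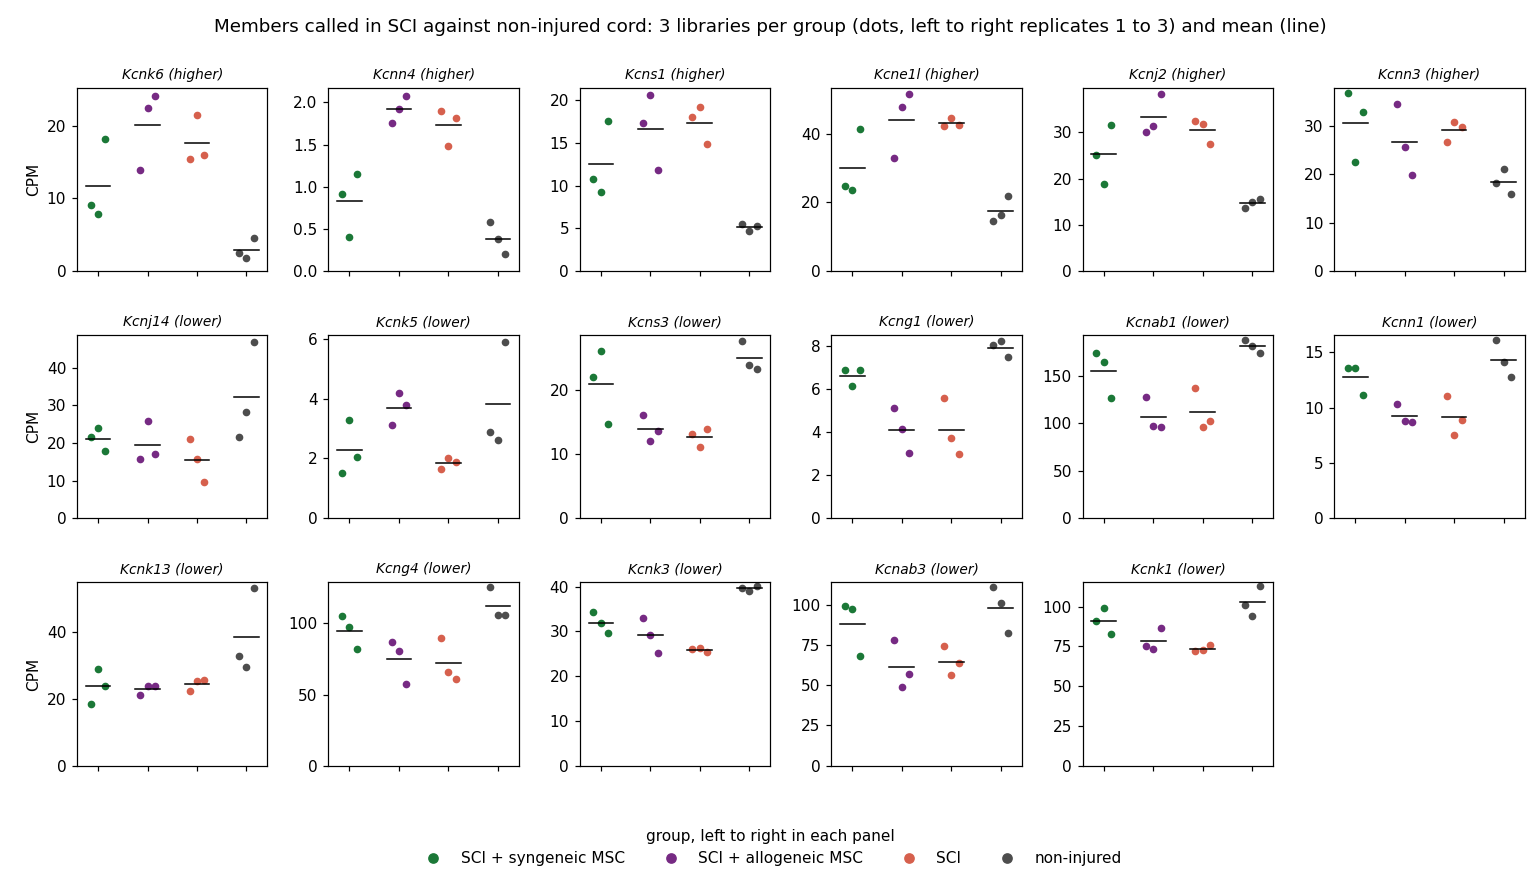
CPM of the 17 members called in SCI against non-injured cord, 1 dot per library and a line at the mean of 3, with the 6 higher members first. In the panels of Kcnk6, Kcns1, Kcnj2 and Kcne1l all injured libraries lie above all non-injured ones, and in the panel of Kcnk13 the non-injured mean is pulled up by replicate 3.

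The list of genes that work with these channels (clustering and scaffold proteins, accessory subunits, HCN channels, sodium pumps, chloride cotransporters and partners of Kir4.1 at the astrocyte endfoot) had 35 members, of which 34 were tested. In SCI against non-injured cord 4 of the 34 were higher and 4 lower, where 16.6% of all genes tested were higher and 9.26% lower. The median log2 fold change was -0.12 over the list and 0.01 over all genes. The 4 that were higher were Aqp4, the water channel of astrocyte endfeet (log2 fold change 1.32, SE 0.22, edgeR adjusted p = 0.00149), Slc12a7, a potassium-chloride cotransporter (1.27, SE 0.24, edgeR adjusted p = 0.00286), Dag1, the dystroglycan of the endfeet (1.08, SE 0.19, edgeR adjusted p = 0.00207), and Lrrc55, an accessory subunit of BK channels (0.75, SE 0.21, edgeR adjusted p = 0.0243). The 4 that were lower were Atp1b1, a beta subunit of the sodium pump (-0.61, SE 0.16, edgeR adjusted p = 0.0168), Epb41l3, the scaffold protein 4.1B beside the nodes (-0.50, SE 0.12, edgeR adjusted p = 0.0113), Lgi3, a secreted protein of Kv1 channel complexes (-0.48, SE 0.11, edgeR adjusted p = 0.00745), and Hcn2, a cation channel opened by hyperpolarisation (-0.43, SE 0.13, edgeR adjusted p = 0.0356). None of the 34 (0) passed the test in syngeneic or allogeneic MSC against SCI, or between the transplant groups. The shares of all genes that passed there were 0.0363%, 0.188% and 0.611%, in that order.

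The comparison of SCI with syngeneic MSC against SCI alone asked what matched donor cells changed. Here 0 of 76 members passed edgeR's test, against 0.0363% of all genes (0.00605% higher and 0.0303% lower). At an unadjusted p below 0.05 there were 10 (13.2%, against 13.5% of all genes), and DESeq2 and limma-voom also called 0. Libraries did not overlap for 19 members (25%, against 23.7% of all genes), and the median log2 fold change was 0.22 over members and 0.00 over all genes. Without syngeneic replicate 1 the member median changed sign to -0.05, and it was 0.34 without syngeneic replicate 2 and 0.14 without SCI replicate 3. The members with the smallest p were Kcns3, Kcnn1 and Kcng1, all of them among the members called lower in SCI. The same SCI libraries enter both comparisons, so members picked as low in SCI tend to come out higher against it. That overlap is therefore no result about the cells given. Kcns3 had 22.1, 26.1 and 14.7 CPM in the syngeneic group, against 13.2, 11.1 and 13.9 CPM in SCI (log2 fold change 0.72, SE 0.19, edgeR adjusted p = 0.286). Syngeneic replicate 3 was the nearest to SCI. Kcnn1 had 13.5, 13.6 and 11.1 CPM in the syngeneic group and 11.1, 7.52 and 8.84 CPM in SCI (log2 fold change 0.48, SE 0.16, edgeR adjusted p = 0.313), the third syngeneic library lying at the edge of the SCI range. Kcng1 had 6.91, 6.13 and 6.87 CPM in the syngeneic group and 5.58, 3.73 and 3.005 CPM in SCI (log2 fold change 0.69, SE 0.23, edgeR adjusted p = 0.313). Its groups did not overlap. Without syngeneic replicate 3, Kcns3 passed as higher and Kcne1l as lower (2.56% of members, against 5.13% of all genes). Without the 3 libraries that stand apart 14 members passed (18.2%, against 12.9% of all genes), 9 of them higher (against 3.25%) and 5 lower (against 9.6%). The part of the macrophage marker sum of syngeneic replicate 3, given above, in the channel values was not tested.

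Allogeneic MSC were compared with SCI alone in the same way, to ask what unmatched donor cells changed. Again 0 of 76 members passed edgeR's test, against 0.188% of all genes (0.169% higher and 0.0182% lower), and 1 member, Kcnk5, had an unadjusted p below 0.05 (1.32%, against 2.94% of all genes). DESeq2 and limma-voom likewise called 0. Only 3 members had libraries that did not overlap (3.95%, against 7.49% of all genes), namely Kcnk5, Kcnt2 and Kcnk2, and the median log2 fold change was -0.12 over members and 0.00 over all genes. The member median was -0.30 without allogeneic replicate 1, -0.05 without allogeneic replicate 2 and -0.03 without allogeneic replicate 3. Kcnk5 had 3.11, 4.17 and 3.78 CPM in the allogeneic group and 1.65, 2.03 and 1.87 CPM in SCI (log2 fold change 0.98, SE 0.36, edgeR adjusted p = 1). The allogeneic values lay in the range of the non-injured libraries. Kcnk5 was among the members called lower in SCI, and the same SCI libraries enter both comparisons, so a higher value against SCI follows in part from that. Kcnt2, a sodium-activated channel, had 9.47, 5.75 and 5.77 CPM in the allogeneic group and 10.1, 9.499 and 9.81 CPM in SCI (log2 fold change -0.48, SE 0.30, edgeR adjusted p = 1), and allogeneic replicate 1 was just below the SCI values. Kcnmb1, the BK beta subunit of smooth muscle, had 0.778, 1.13 and 1.25 CPM in the allogeneic group and 1.78, 0.988 and 2.04 CPM in SCI, and these overlapped (log2 fold change -0.60, SE 0.32, edgeR adjusted p = 1). No alternative called a member here, including the removal of the 3 libraries that stand apart (0 of 77, against 0.292% of all genes).

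Between the transplant groups, the direct donor comparison, 0 of 76 members passed edgeR's test, against 0.611% of all genes (0.0182% higher and 0.593% lower). At an unadjusted p below 0.05 there were 14 (18.4%, against 14.4% of all genes), and DESeq2 and limma-voom also called 0. Libraries did not overlap for 6 members (7.89%, against 12.2% of all genes), and the median log2 fold change was 0.32 over members and 0.02 over all genes. The member median was 0.12 without syngeneic replicate 1, 0.57 without allogeneic replicate 1 and 0.21 without allogeneic replicate 2 or allogeneic replicate 3. The smallest p belonged to Kcnn4, Kcnab1 and Kcns3. Kcnn4 had 0.918, 0.409 and 1.16 CPM in the syngeneic group and 1.75, 1.92 and 2.08 CPM in the allogeneic group (log2 fold change -1.25, SE 0.37, edgeR adjusted p = 0.217). Every syngeneic library was below every allogeneic one. Kcnab1 had 174, 164 and 126 CPM in the syngeneic group and 127, 96.7 and 95.6 CPM in the allogeneic group (log2 fold change 0.54, SE 0.17, edgeR adjusted p = 0.237), with an overlap of syngeneic replicate 3 and allogeneic replicate 1. Kcns3 had 22.1, 26.1 and 14.7 CPM with syngeneic and 16.1, 12.1 and 13.6 CPM with allogeneic cells (log2 fold change 0.59, SE 0.19, edgeR adjusted p = 0.246), with the same pair of libraries overlapping. Without syngeneic replicate 3 there were 5 calls (6.41% of members, against 6.98% of all genes), Kcns3 higher and Kcne1l, Kcnj2, Kcnk6 and Kcnn4 lower. Without the 3 libraries that stand apart there were 33 (42.9%, against 22.8% of all genes), 27 of them higher (against 8.57%) and 6 lower (against 14.2%). The size and direction of this count follow in part from the choice of those libraries. T cell markers summed to 23.9 to 60.4 CPM in the syngeneic group and 106 to 186 CPM in the allogeneic group, with 6 of 8 called lower, and their part in the channel values was not tested. The sample titles of the 2 transplant groups and of the other samples fall in separate number ranges, so any shared handling cannot be told apart from the cells given. This limit also holds for each transplant group against SCI and against non-injured cord.

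Against non-injured cord, the 2 transplant groups and SCI share the same 3 non-injured libraries, so their values are given side by side and not as independent results. In the syngeneic group 3 members were called, all higher (3.95%, against 4.92% of all genes), 0 were lower (against 0.424%), and 5.34% of all genes were called either way. They were Kcnk6, Kcns1 and Kcnj2. In the allogeneic group 5 were higher (6.58%, against 16.7%) and 11 lower (14.5%, against 8.17%), together 16 (21.1%, against 24.9%). Libraries did not overlap with non-injured cord for 11 members in the syngeneic group (14.5%, against 20.9% of all genes) and for 15 in the allogeneic group (19.7%, against 37%).

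Of the members that were higher after injury, Kcnk6 had 9.09, 7.88 and 18.1 CPM in the syngeneic group and 13.9, 22.5 and 24.1 CPM in the allogeneic group. Its log2 fold change against non-injured cord was 1.98 (SE 0.39), 2.78 (SE 0.40) and 2.59 (SE 0.39) for syngeneic, allogeneic and SCI, with edgeR adjusted p of 0.013, 0.000523 and 0.00098. Kcns1 had 10.8, 9.23 and 17.5 CPM in the syngeneic group and 17.4, 20.6 and 11.8 CPM in the allogeneic group, for log2 fold changes of 1.25 (SE 0.26), 1.66 (SE 0.26) and 1.74 (SE 0.26). All transplant libraries of both genes lay above all non-injured ones, syngeneic replicate 3 being the highest of its group. Kcnj2 had 25.1, 18.9 and 31.7 CPM with syngeneic and 30.2, 31.4 and 38.3 CPM with allogeneic cells, for 0.77 (SE 0.17), 1.18 (SE 0.17) and 1.05 (SE 0.17). For Kcne1l the values were 24.6, 23.6 and 41.5 CPM with syngeneic and 33.01, 47.7 and 51.5 CPM with allogeneic cells, for 0.76 (SE 0.23), 1.32 (SE 0.24) and 1.29 (SE 0.24). Kcnn4 gave 1.01 (SE 0.43), 2.25 (SE 0.41) and 2.10 (SE 0.40). In the syngeneic group Kcne1l and Kcnn4 missed the threshold (edgeR adjusted p = 0.0909 and 0.221).

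Of the members that were lower after injury, Kcns3, Kcng1, Kcnab1, Kcnab3, Kcnn1, Kcng4, Kcnk1, Kcnk3 and Kcnk13 were also called lower in the allogeneic group, with Kcnt1 and Kcnip3 in addition. Of these 11, Kcnab1, Kcnk3 and Kcns3 held their allogeneic call under all 14 alternatives, as did the 5 that were higher. Kcnip3 lost it in 7 alternatives, limma-voom among them, Kcnt1, Kcng4 and Kcnk13 in 6 each, Kcnab3 in 5, Kcnk1 and Kcnn1 in 3 each and Kcng1 in 1. Without allogeneic replicate 2 the calls of Kcnab3, Kcng4, Kcnip3, Kcnk1, Kcnk13, Kcnn1 and Kcnt1 were lost, and without allogeneic replicate 3 those of the same genes other than Kcnk1, with that of Kcng1. Without non-injured replicate 1 or 2 those of Kcnab3, Kcng4, Kcnip3 and Kcnt1 were lost, and that of Kcnn1 without replicate 1 only. The call of Kcnk13 was also lost without allogeneic replicate 1 or non-injured replicate 3. None of the 11 was called in the syngeneic group. Kcng1 had 6.91, 6.13 and 6.87 CPM in the syngeneic group and 5.12, 4.17 and 3.04 CPM in the allogeneic group, for -0.26 (SE 0.23), -0.95 (SE 0.24) and -0.95 (SE 0.23) against non-injured cord. Its syngeneic libraries lay between those of the 2 other injured groups and those of non-injured cord, with no overlap with non-injured cord. Kcnk3 had 34.4, 31.9 and 29.7 CPM with syngeneic and 33.01, 29.2 and 25.1 CPM with allogeneic cells, for -0.31 (SE 0.10), -0.45 (SE 0.11) and -0.62 (SE 0.11), and none of the 9 injured libraries reached a non-injured one. Kcnk1 had 90.7, 98.9 and 82.5 CPM with syngeneic and 74.97, 73.6 and 86.4 CPM with allogeneic cells, for -0.18 (SE 0.11), -0.39 (SE 0.11) and -0.48 (SE 0.11). Syngeneic replicate 2 lay inside the non-injured range and the 8 other injured libraries below it. For Kcnab3 (99.5, 97.3 and 68.03 CPM with syngeneic and 77.9, 48.6 and 56.7 CPM with allogeneic cells) the values were -0.15 (SE 0.20), -0.68 (SE 0.20) and -0.60 (SE 0.20). Kcnk13 (18.5, 29.2 and 23.8 CPM with syngeneic and 21.2, 23.9 and 23.9 CPM with allogeneic cells) gave -0.70 (SE 0.21), -0.75 (SE 0.21) and -0.65 (SE 0.21). A call in the allogeneic group or SCI and none in the syngeneic group is not a difference between them: the direct tests above called 0 members.

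**Figure D5:**
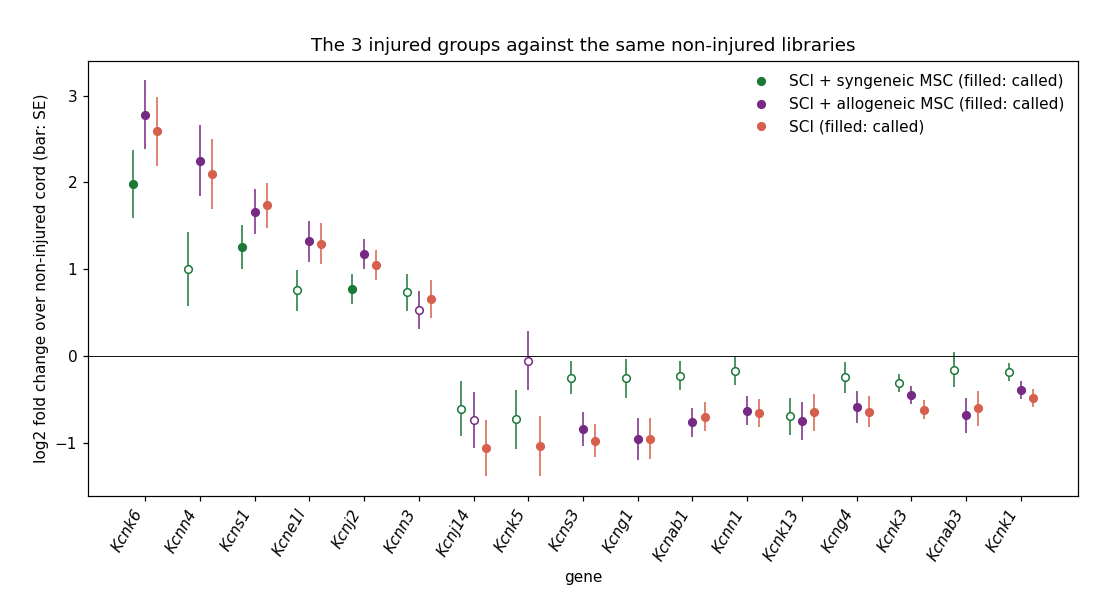
Fitted log2 fold change against the same 3 non-injured libraries for the 17 members, with bars for the SE, filled points where the adjusted p is below 0.05 and open points elsewhere. Syngeneic points are filled for Kcnk6, Kcns1 and Kcnj2, and the SCI points are all filled because the genes were chosen by that test.

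These calls moved with single libraries. The syngeneic count against non-injured cord was 0 without non-injured replicate 1 (against 2.14% of all genes) and 0 without non-injured replicate 2 (against 2.73%). It was 1 without syngeneic replicate 3 (1.28% of members, against 2.58% of all genes) and 8 without syngeneic replicate 2 (10.4%, against 10.5%). Without the 3 libraries that stand apart it was 3 (3.9%, against 5.2%). The allogeneic count was 27 without allogeneic replicate 1 (34.6%, against 27.7%), 9 without allogeneic replicate 2 (11.5%, against 15.5%) and 10 without allogeneic replicate 3 (13%, against 18.2%). Without the 3 libraries that stand apart it was 46 (59.7%, against 37.1%), 8 higher (against 22.4%) and 38 lower (against 14.7%). This count too follows in part from which libraries were left out.

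Among the abundant and cell-linked members that were not called in SCI, the first library of a transplant group was often its highest. Kcnj10 had 1314, 1045 and 1276 CPM in the syngeneic group and 1303, 1213 and 871 CPM in the allogeneic group, where replicate 3 was the lowest of all 12 libraries. Kcnj16 had 93.7, 83.1 and 81.5 CPM with syngeneic and 90.3, 75.8 and 65.2 CPM with allogeneic cells, again with allogeneic replicate 3 the lowest. Kcna1 had 777, 591 and 567 CPM with syngeneic and 607, 465 and 394 CPM with allogeneic cells. Kcna2 had 721, 368 and 439 CPM with syngeneic and 566, 279.6 and 236 CPM with allogeneic cells, so the first library of each transplant group was well above its 2 companions. The first library was also the highest of each group for Kcnc1, with 259, 201 and 199 CPM with syngeneic and 216, 119.8 and 128 CPM with allogeneic cells. Kcnab2 had 495, 423 and 373 CPM with syngeneic and 403, 309.9 and 291 CPM with allogeneic cells. Kcnma1 spanned the widest range of these in proportion, with 51.4, 10.7 and 27.2 CPM in the syngeneic group and 42.997, 15.01 and 10.01 CPM in the allogeneic group. Kcna3 had 5.64, 2.08 and 5.07 CPM with syngeneic and 7.004, 4.74 and 2.86 CPM with allogeneic cells. Kcnip3 had 60.01, 51.4 and 55.1 CPM with syngeneic and 56.6, 50.7 and 43.96 CPM with allogeneic cells, and Kcnj8 6.34, 6.6996 and 7.64 CPM with syngeneic and 6.16, 10.2 and 10.1 CPM with allogeneic cells. Neither transplant group stood apart from the other in any of these, since each pair of ranges overlapped.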

How the data were processed

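The authors deposited 1 table of unnormalised counts, 1 row per Ensembl gene and 1 column per library. Per the labels' protocols, poly(A)-selected, strand-specific libraries were made from column-purified, DNase-treated RNA. Tools listed in the submitters' processing notes are featureCounts 1.5.1, STAR 2.5.1, Picard, StringTie 1.3.3, FastQC 0.11.5 and Trim Galore 0.4.1, and the build is GRCm38. Which annotation release was used, and whether counting was stranded, is not given in the sources used here, so members with exons opposite another gene are uncertain (of those named, Kcnab1, Kcnab3, Kcng2, Kcnj6, Kcnj13, Kcnk1, Kcnk2, Kcnk3, Kcnma1, Kcnn1 and Kcnt2), as are those of Kcnab2, which shares exon bases with a gene on its own strand. Symbols, exon lengths and coordinates came from GENCODE M21.

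Counts were tested with edgeR 4.0.16 (quasi-likelihood, robust, TMM scaling) in R 4.3.3, in 1 fit of all 12 libraries, 1 mean for each group, leaving 8 residual degrees of freedom. Genes were kept at a minimum count of 10 and a total of 15. Benjamini-Hochberg adjustment ran over all 16527 genes kept, and a call means an adjusted p below 0.05. The SE of a log2 fold change was not fitted directly. It is the absolute log2 fold change divided by the square root of the F statistic of the test. CPM are counts scaled to the TMM-adjusted library size, and CPM per kb divides them by the exon length. The fit was also run on simulated counts, drawn independently for each gene and library without the library-wide shifts seen here. That run cannot say how such shifts affect the calls. Alternatives were DESeq2 1.42.0, limma 3.58.1 (voom), other scalings and filters, fits of 2 groups alone, and leaving out libraries. Counting intervals cover counting error only. Replicates were numbered in accession order, which pairs no samples. No replicate pair agreed within sampling noise.

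Members named with library values were the up to 8 largest called rises and falls of a main comparison, 16 members with known cell settings, and the 3 smallest p where none was called. Kcnb2, Kcnf1, Kcng2, Kcns2, Kcnj13, Kcnk2, Kcnt1 and the remaining called members were named after their values were seen. The members and lists were chosen with earlier results of these data known. A few members and sequences are counted above but not reported here by name or value.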

Additional observations from a re-analysis of the deposited data

How the results depend on the processing

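No paired analysis was possible because the labels give no replicate numbers that groups share. With single libraries left out, calls in SCI against non-injured cord ranged from 8 (10.5% of members, against 14% of all genes, and 10.3%, against 16.3%) to 20 (26%, against 23.8%). They ranged from 0 to 2 (2.56%, against 5.13%) in syngeneic MSC against SCI. Between syngeneic and allogeneic MSC the range was 0 to 5 (6.41%, against 6.98%). Against non-injured cord, calls ranged from 0 (against 2.14% and 2.73%) to 8 (10.4%, against 10.5%) for syngeneic MSC. For allogeneic MSC they ranged from 9 (11.5%, against 15.5%) to 27 (34.6%, against 27.7%). In allogeneic MSC against SCI they were 0 throughout, against at most 0.173% of all genes. Without the 3 libraries that stand apart, the calls were 26 in SCI against non-injured cord (33.8% of members, against 30.2% of all genes), 14 in syngeneic MSC against SCI (18.2%, against 12.9%), 33 in syngeneic against allogeneic MSC (42.9%, against 22.8%) and 46 in allogeneic MSC against non-injured cord (59.7%, against 37.1%), whose median log2 fold change became -0.73. Those libraries were chosen from the same data, so these counts support nothing by themselves. Syngeneic MSC against non-injured cord gave 6 calls with DESeq2 (7.89%, against 8.23% of all genes) and 0 in a fit of those 2 groups alone (against 1.06%). In SCI against non-injured cord, Kcna2, which was not called, changed sign to 0.00085 with library totals as the only scaling, 0.013 with limma-voom and 0.20 without non-injured replicate 1. Leaving out single libraries moved it between -0.29 and 0.20. Kcnj16, also not called, changed sign to 0.052 with library totals, 0.0021 without SCI replicate 2 and 0.011 without the 3 libraries, and single removals moved it between -0.036 and 0.0021. The cause was not tested. Members near 1 CPM, such as Kcnn4 and Kcnmb1, rest on few counts, and 18 members were too scarce to test.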

Other observations

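Among the 76 tested members, those that differed most within non-injured cord were chosen after their values were seen. Kcnk9, the acid-sensitive leak channel TASK3 of neurons, had 31.9, 6.37 and 16.2 CPM in the syngeneic group, 26.3, 12.6 and 7.104 CPM in the allogeneic group, 18.8, 21.2 and 16.95 CPM in SCI and 16.5, 16.1 and 1.54 CPM in non-injured cord. The third non-injured library was 10.8-fold below the highest. Kcnf1, a silent subunit of Kv2 channels, had 7.23, 6.37 and 4.48 CPM in SCI and 5.84, 5.87 and 0.564 CPM in non-injured cord. Kcnj6, the G-protein-gated rectifier GIRK2, had 4.17, 4.83 and 4.88 CPM in SCI and 4.52, 4.93 and 0.615 CPM in non-injured cord. In all of them non-injured replicate 3 was the low library, and the SCI libraries of Kcnk9 and Kcnj6 kept within 1.25-fold and 1.17-fold of each other.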
